A study of Homo sapiens with 10 samples.

Results

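The ZNF genes of chromosome 19 are the largest assembly of zinc finger genes in the human genome, and they were followed here in PC-3 prostate cancer spheroids exposed to topotecan. Members were all listed genes on chromosome 19 whose symbol is ZNF followed by a number and at most 1 letter, a rule that uses no measured value. It chose 241 of the 18144 genes listed, and another 245 ZNF genes lay on other chromosomes. PC-3 is an established human cell line from a bone metastasis of prostate cancer, and topotecan blocks the religation step of DNA topoisomerase 1. Spheroids (cells grown in 3D) were left untreated, received conventional topotecan (CONV-TOPO) as 1 bolus at the start, or received extended-exposure topotecan (EE-TOPO, labelled METRO) as small daily doses. All groups shared the same cell line and culture form. The libraries were untreated on days 0, 3 and 7, CONV-TOPO on days 3 and 7 and EE-TOPO on days 3 and 7, each condition being a single library, and the day 1 libraries were not analysed here. The days are those of the sample labels, whereas the paper gives the late exposure in weeks. Nothing in the sources used here says that any treatment and day was grown more than once, so every ratio of 2 libraries below is a description without a replicate check.

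Most of these genes encode proteins with a KRAB box at the front and a run of C2H2 zinc fingers behind it. The fingers read DNA, often inside transposable elements, and the KRAB box recruits TRIM28 (KAP1), which in turn brings the histone H3 lysine 9 methyltransferase SETDB1 and heterochromatin proteins to silence the site. The genes arose by repeated tandem duplication and therefore sit in clusters of relatives. A smaller group carries no KRAB box and includes SCAN-domain and short GC-rich finger genes.

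A canonical GENCODE transcript was found for 240 members, of which 231 were protein-coding and 9 were pseudogenes. The translated proteins held a median of 12 C2H2 fingers and at most 32, in ZNF91. A KRAB box pattern was found in 186 members, called KRAB members below, and the other 55 members had no match, including the pseudogenes and the gene without a transcript. The first pattern tried had missed known KRAB genes such as ZNF224 and ZNF350 and found 157. Members fell into 11 clusters of at least 5 genes with under 500 kb between neighboring starts, numbered in order along the chromosome, and 229 members lay in them. The clusters with the most members were cluster 11 with 43 members (hg38 chr19:57191500-58489534), cluster 9 with 42 (chr19:51571283-53580270) and cluster 3 with 27 (chr19:11483429-12633822).

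Many promoters of the KRAB members shared short words. A search of every 8-base word in the RefSeq promoters (250 bases before to 50 after the start, GRCh38.p14) ranked words by how much more often they occurred in KRAB members than in all listed genes. The leading word was TCCAATCA (reverse complement TGATTGGA), which holds the letters of a CCAAT box, in 44 of 163 KRAB promoters (27.0%). The same word, on either strand, was in 238 of 13529 promoters of listed genes (1.76%), in 16.7% of the 78 KRAB ZNF promoters of other chromosomes and in 6 of 801 promoters (0.749%) of other genes of chromosome 19. Among the 43 promoters of members without a KRAB match, 5 held the word (11.6%). Of its 60 matches in KRAB members, 59 pointed the same way as the gene, at a median of 63 bases before the start. All 44 genes lay in 4 clusters, namely 3 of 4 KRAB promoters in cluster 1, 18 of 22 in cluster 3, 16 of 16 in cluster 4 and 7 of 7 in cluster 5, while none of those in clusters 2 and 6 to 11 held it. A further word that shares fewer than 5 bases in a row with it, CTGTCACT (reverse complement AGTGACAG), was in 21.5% of KRAB promoters and 1.9% of all, at a median of 125 bases before the start. The next, CCGGAAGC (reverse complement GCTTCCGG), was in 23.9% and 6.09%. The words were found on the promoters they describe, and a match says nothing about a bound factor.

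Promoter bases 200 to 1 before the start are printed below for 3 KRAB members with the CCAAT-type word and, for contrast, for a GC-rich member without a KRAB match, each on its own strand 5′ to 3′. ZNF91 (chr19:23395472-23395671, minus strand) and ZNF708 (chr19:21329411-21329610, minus strand) are among the members with the highest ratios to untreated spheroids on day 3, ZNF791 (chr19:12610720-12610919, plus strand) comes from cluster 3, and ZNF787 (chr19:56121296-56121495, minus strand) is a member that rose on day 7. Capitals mark TCCAATCA and CTGTCACT.
ZNF91: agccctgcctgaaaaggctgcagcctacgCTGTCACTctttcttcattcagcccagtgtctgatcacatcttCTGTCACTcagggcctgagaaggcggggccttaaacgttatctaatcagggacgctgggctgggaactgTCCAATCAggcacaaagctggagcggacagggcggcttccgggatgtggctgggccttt
ZNF791: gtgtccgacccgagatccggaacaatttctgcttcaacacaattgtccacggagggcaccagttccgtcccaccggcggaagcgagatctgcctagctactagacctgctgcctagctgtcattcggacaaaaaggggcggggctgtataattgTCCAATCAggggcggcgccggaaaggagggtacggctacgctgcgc
ZNF708: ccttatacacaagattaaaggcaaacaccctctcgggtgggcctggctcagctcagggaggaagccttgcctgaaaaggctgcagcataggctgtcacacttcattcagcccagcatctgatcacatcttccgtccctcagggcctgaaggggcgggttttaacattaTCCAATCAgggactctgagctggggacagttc
ZNF787: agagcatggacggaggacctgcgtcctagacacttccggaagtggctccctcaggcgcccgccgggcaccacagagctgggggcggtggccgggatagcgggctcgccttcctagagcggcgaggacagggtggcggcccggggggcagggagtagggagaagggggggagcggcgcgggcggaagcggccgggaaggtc
The ZNF91 stretch held 3 matches, those of ZNF791 and ZNF708 held 1 each and that of ZNF787 held 0. Their GC content was 57.0%, 59.0%, 54.0% and 73.5% in the printed order.

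**Figure D1:**
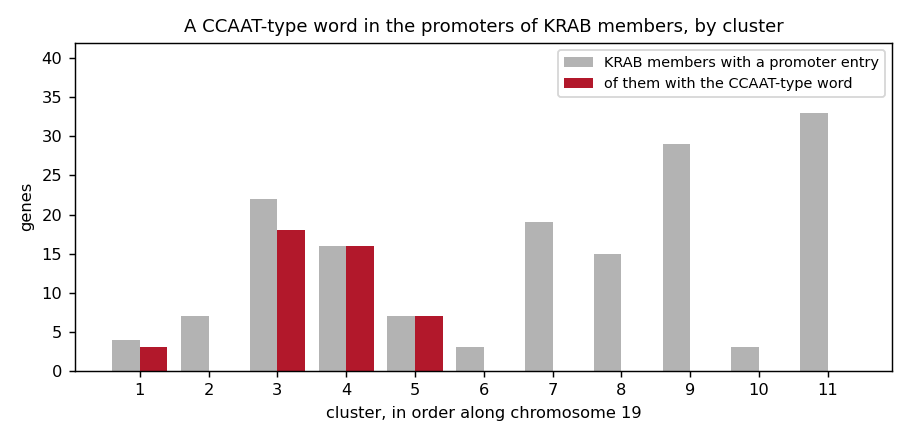
Number of KRAB members with a RefSeq promoter entry (grey bars) and number of them with the word TCCAATCA on either strand (red bars), for the 11 clusters in order along chromosome 19. The red bars stand only in clusters 1, 3, 4 and 5, with 3, 18, 16 and 7 genes.

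Expression was measured as counts per 1000000 reads (CPM), and the 7 libraries held 15 M to 22.5 M reads (M, 1000000) by the size of 1 read in the table. Members were weakly expressed. Their median over libraries was 6.78 CPM against 14.3 CPM for all listed genes, and together they took 0.232% to 0.378% of a library. All 241 were above 0 in some library, 15 were at 0 in at least 1, 217 reached a mean of 0.5 CPM and entered the fits, and 141 reached a mean of 5 CPM and entered the ratios (107 KRAB members and 34 without a match). A member at 0 in a library had no read counted, and its level may still have been up to that of 3 reads, which is 0.134 to 0.2 CPM. Between 94.9% and 100% of the member values under 1 CPM, which are 25 to 45 values a library, were whole reads within 0.02 of a read, against 88.7% to 90.6% for other genes. Over all member values above 0 the share was 62.9% in untreated day 0 and 20.8% to 35.2% in the other libraries. The reason for these lower shares was not tested. How reads with several matching positions were handled is not given in the sources used here, and levels of the closest relatives are uncertain for that reason. The PC-3 markers KRT8 and KRT18 measured 624 to 1170 and 474 to 864 CPM, VIM 731 to 1070 CPM, CD44 252 to 390 CPM and EPCAM 149 to 195 CPM. KLK3 and CD3E were not analysed here. Of the markers of other cell types, PTPRC and ALB stayed at or below 0.525 CPM, whereas PECAM1 (16.8 to 32.7 CPM), COL1A1 (46.6 to 83.0 CPM) and COL3A1 (3.26 to 16.0 CPM) were present in every library, and their part in the results was not tested. In RNA from whole spheroids, fewer expressing cells and less RNA per cell cannot be told apart.

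Per kilobase of transcript, the highest members were GC-rich genes without a KRAB match. ZNF358 led with a mean of 69.6 CPM per kb, followed by ZNF787 (57.2), ZNF581 (48.7), ZNF580 (43.1), ZNF444 (34.6, a SCAN-domain gene), ZNF428 (32.3), ZNF524 (30.6) and ZNF579 (27.8). The KRAB member with the highest level reached 13.2 CPM per kb, and the median was 1.75 CPM per kb for KRAB members, 2.94 for members without a match and 4.62 for all listed genes. Among well-studied members, ZNF146 (OZF, a protein made almost only of fingers) measured 49.4 to 100 CPM and ZNF274, which binds the 3′ ends of other zinc finger genes, 9.54 to 18.4 CPM. ZNF132, known for promoter methylation in prostate cancer, measured 0.547 to 1.84 CPM. ZNF93, which silences L1 retrotransposons, measured 0.150 to 1.53 CPM, close to the limit of 3 reads in the lowest library.

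Untreated spheroids differed between days in their KRAB members before any drug was considered. On day 3, 102 of 107 KRAB members were higher than on day 0, with a median log2 ratio of 0.50 (1.41-fold), and on day 7, 97 of 107 were higher, with a median of 0.33. Over all listed genes with at least 5 CPM the medians were -0.02 and -0.04, and 46.8% and 43.6% of genes were higher. The KRAB ZNF genes of other chromosomes had medians of 0.32 and 0.31, and the members without a KRAB match 0.18 and -0.06. The ratios of day 3 and day 7 share the day 0 library, which was not repeated.

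The members with the highest day 7 to day 0 ratio were ZNF224, ZNF83 and ZNF528. ZNF224, a repressor that partners with WT1, measured 2.63, 6.48 and 9.30 CPM in untreated spheroids on days 0, 3 and 7, 12.3 and 3.59 CPM after CONV-TOPO on days 3 and 7, and 9.21 and 3.86 CPM after EE-TOPO. ZNF83, a finger-only relative, measured 17.5, 26.4 and 46.9 CPM untreated, 46.8 and 23.0 CPM after CONV-TOPO and 30.8 and 15.7 CPM after EE-TOPO. Both were at their lowest untreated level on day 0, and both stood at less on day 7 than on day 3 in either regimen. The lowest day 7 to day 0 ratios were those of ZNF180 (log2 ratio -0.56), ZNF844 (-0.53) and ZNF787 (-0.52).

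The first comparison asked what topotecan did by day 3. Most KRAB members were above the untreated library of the same day, more so after EE-TOPO than after the bolus. Over the 107 KRAB members the median log2 ratio was 0.18 after CONV-TOPO (82 higher) and 0.36 after EE-TOPO (95 higher), and that of all listed genes was -0.03 and -0.06. Members without a KRAB match had medians of -0.05 and -0.12, and other genes of chromosome 19 had -0.07 and -0.21. Over all listed genes, Spearman's rho of the day 3 log2 ratio with transcript length was 0.32 for CONV-TOPO and 0.52 for EE-TOPO. Across the 107 KRAB members it was 0.17 and 0.13, and the part of length in the day 3 values was not tested. In the limma fit of both regimens on day 3 against the 3 untreated libraries, 0 of 217 members passed an adjusted p of 0.05 in either direction, as against 0.0347% of all 14399 genes tested that passed as higher and 0.00694% that passed as lower. At an unadjusted p under 0.05, 67 of 167 KRAB members were higher (40.1%) and 0 lower, against 6.85% and 8.76% of all genes. The corresponding share of KRAB ZNF genes on other chromosomes was 15.7% higher. The untreated libraries of this fit include day 0. In untreated spheroids 102 of 107 KRAB members were higher on day 3 than on day 0. The part of that change in the 40.1% was not tested. Without the untreated library of day 3, 5 members passed the adjusted threshold as higher, as did 1.14% of all genes. No member was at least 2-fold higher or lower in both regimens at once, and the background was 0.229% and 0.194% of 11332 genes.

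The highest day 3 ratios belonged to ZNF841, ZNF91, ZNF526, ZNF528 and ZNF708. ZNF841 measured 7.56, 12.3 and 14.9 CPM in untreated spheroids on days 0, 3 and 7, 24.5 and 8.20 CPM after CONV-TOPO on days 3 and 7, and 35.9 and 12 CPM after EE-TOPO. ZNF91, the repressor of SVA retrotransposons, measured 6.66, 11.0 and 12.1 CPM untreated, 19.9 and 5.65 CPM after CONV-TOPO and 30.7 and 7.45 CPM after EE-TOPO. For both genes the 2 treated libraries of day 3 were the highest of all 7 and the EE-TOPO library the higher of the pair. ZNF708, a relative of ZNF91 in cluster 4, measured 3.16, 3.75 and 4.99 CPM untreated, 5.92 and 3.59 CPM after CONV-TOPO and 10.1 and 6.39 CPM after EE-TOPO. ZNF528 measured 4.91, 7.29 and 11.4 CPM untreated, 12.9 and 6.38 CPM after CONV-TOPO and 18.2 and 8.72 CPM after EE-TOPO. In each of these 4 genes EE-TOPO on day 3 gave the highest value, with log2 ratios to untreated of 1.43, 1.36, 1.24 and 1.19, and none passed the adjusted threshold. Against the pooled untreated libraries the log2 change of ZNF91 was 1.23 (limma adjusted p = 0.139). At the other end, ZNF414, ZNF446, ZNF580, ZNF581 and ZNF628, all without a KRAB match, had log2 ratios of -0.49 to -0.04 after CONV-TOPO and -0.72 to -0.43 after EE-TOPO.

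**Figure D2:**
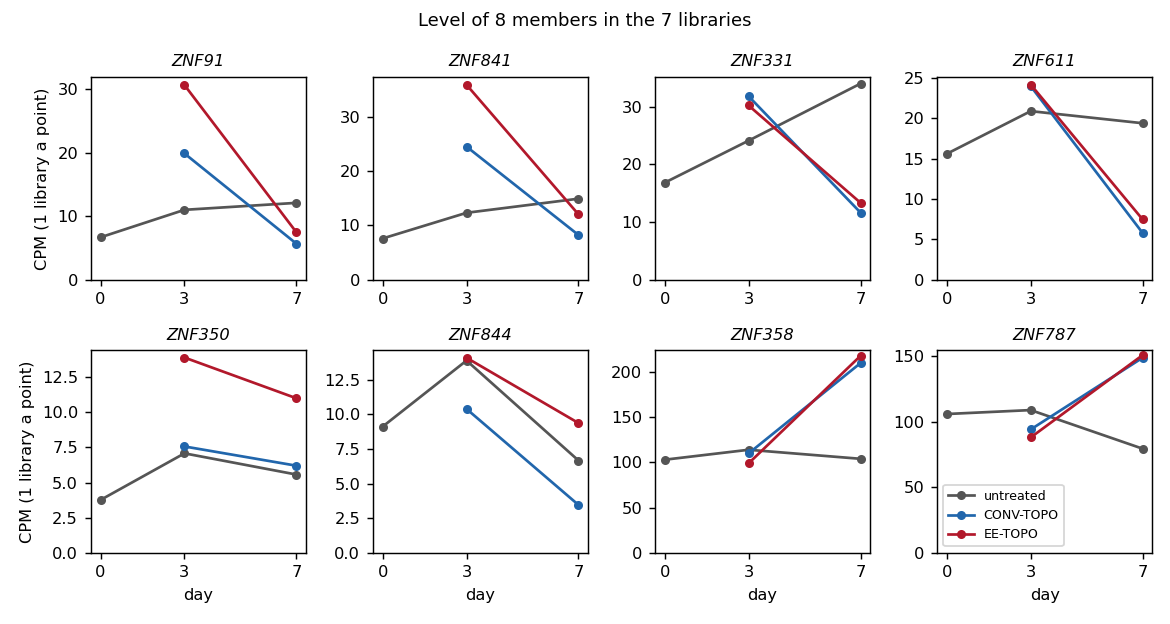
CPM (y axis, from 0) of 8 members on days 0, 3 and 7 (x axis), where each point is 1 library of untreated (grey), CONV-TOPO (blue) or EE-TOPO (red) spheroids and there are no error bars. ZNF91 and ZNF841 peak in the treated day 3 libraries, ZNF331 and ZNF611 are low in both treated day 7 libraries, ZNF350 and ZNF844 are higher after EE-TOPO than after CONV-TOPO on both days, and ZNF358 and ZNF787 are highest in both treated day 7 libraries.

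On day 7 the KRAB members and the members without a KRAB match parted. In the limma fit of both regimens on day 7 against the untreated libraries, 29 of 217 members rose and 20 fell, against 21.3% of all genes that rose and 23.3% that fell. These shares, 13.4% and 9.22% of the members, were below the background in both directions. Of the 167 KRAB members tested, 8 rose (4.79%) and 15 fell (8.98%), and of the 50 members without a match 21 rose (42%) and 5 fell (10%). KRAB ZNF genes on other chromosomes had 6.02% rising and 24.1% falling. Without the deposited CPM being scaled, 22 members rose and 33 fell, beside 13.8% and 33.5% of all genes, and the day 7 treated libraries then lay 0.27 and 0.25 log2 units below untreated over all genes. The count of falling members was 9 without the CONV-TOPO library of day 7, 11 without the untreated library of day 7 and 35 without the untreated library of day 0, where 17%, 18.7% and 21.6% of all genes fell. The rise was shared by other genes of chromosome 19. In scaled ratios to the untreated library of day 7, 22.6% of 642 such genes were at least 2-fold higher in both regimens and 1.09% lower. Of the 34 members without a KRAB match with at least 5 CPM, 23.5% were higher and 2.94% lower.

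Most of the rising members were GC-rich genes without a KRAB match, 17 of the 29 having a transcript of at least 55% GC and no match, and over all listed genes the direction moved with base composition. Of the 20 tested members without a KRAB match whose transcript had at least 55% GC, 17 rose (85.0%) and 0 fell, while of all listed genes with at least 55% GC, 46.9% rose and 6% fell. Of the 137 KRAB members under 45% GC, 14 fell (10.2%) and 6 rose (4.38%), against 40.5% and 4.23% of all genes under 45% GC and 33.3% and 0% of the 51 KRAB ZNF genes of other chromosomes under 45% GC. The untreated libraries of this fit include day 0, where most KRAB members were lower than on days 3 and 7. The part of day 0 in these shares was not tested. Against the untreated library of day 7 alone, KRAB members under 40% GC had median log2 ratios of -0.51 (CONV-TOPO) and -0.20 (EE-TOPO). All listed genes under 40% GC had -0.48 and -0.48. Across 11124 genes with at least 5 CPM and a transcript, Spearman's rho of the day 7 log2 ratio with GC was 0.52 for CONV-TOPO and 0.51 for EE-TOPO, and with transcript length -0.64 and -0.60. Across the 107 KRAB members the same rho with GC was 0.10 and 0.06. These are descriptions over genes that share the same pairs of libraries, and the part of base composition and length in the day 7 values was not tested.

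**Figure D3:**
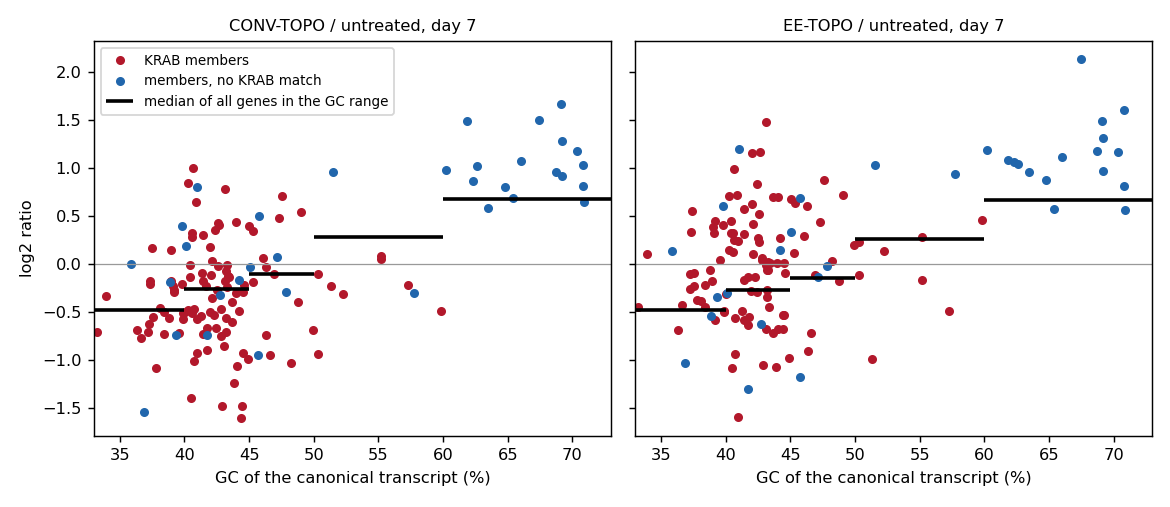
Log2 ratio of the treated to the untreated library of day 7 (y axis) against the GC content of the canonical transcript (x axis) for KRAB members (red) and members without a KRAB match (blue) with a mean of at least 5 CPM, with CONV-TOPO on the left and EE-TOPO on the right. Black bars give the median of all listed genes in each GC range, from -0.48 under 40% GC to 0.68 and 0.66 above 60%. The KRAB members between 40% and 45% GC have medians of -0.35 after CONV-TOPO and 0.00 after EE-TOPO, and all genes there have -0.26 and -0.28.

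ZNF358, ZNF524, ZNF581, ZNF296 and ZNF837 had the highest day 7 ratios. ZNF358 measured 103, 114 and 104 CPM in untreated spheroids, 110 and 210 CPM after CONV-TOPO on days 3 and 7, and 99.0 and 218 CPM after EE-TOPO. ZNF524 measured 23.5, 26.1 and 24.2 CPM untreated, 32.0 and 64.2 CPM after CONV-TOPO and 25.6 and 58.2 CPM after EE-TOPO. ZNF581 measured 46.7, 54.6 and 42 CPM untreated, 54.7 and 98.1 CPM after CONV-TOPO and 36.7 and 75.5 CPM after EE-TOPO. In all 3 genes both treated day 7 libraries stood above the other 5. The log2 rise was 1.21 ± 0.11 (SE) for ZNF358, 1.51 ± 0.15 for ZNF524 and 1.07 ± 0.20 for ZNF581 (limma adjusted p = 6.82e-05, 7.84e-05 and 0.0016). ZNF296 measured 3.06, 4.91 and 2.94 CPM untreated, 4.74 and 7.66 CPM after CONV-TOPO and 5.25 and 12.4 CPM after EE-TOPO, and it rose by 1.55 ± 0.27 log2 units (limma adjusted p = 0.0013). ZNF787, the member with the GC-rich promoter printed above, measured 106, 109 and 79.5 CPM untreated, 94.2 and 149 CPM after CONV-TOPO and 88.1 and 151 CPM after EE-TOPO, and it rose by 0.84 ± 0.16. In both treated day 7 libraries 8 members were at least 2-fold above the untreated library of that day, all of them without a KRAB match (ZNF358, ZNF414, ZNF296, ZNF579, ZNF524, ZNF581, ZNF787 and ZNF837). That is 5.67% of 141 members against a background of 6.73%. Without scaling the number was 3, against 2.86% of all genes. The KRAB member ZNF93 also rose, from 0.150, 0.528 and 0.210 CPM untreated to 1.52 and 1.53 CPM in the treated day 7 libraries (log2 change 1.53 ± 0.33, limma adjusted p = 0.0041). Its day 0 value is that of 3 reads, so this change rests on few reads.

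The lowest day 7 ratios were those of ZNF714, ZNF558, ZNF808, ZNF611 and ZNF331. ZNF611 measured 15.6, 20.9 and 19.4 CPM untreated, 24.0 and 5.77 CPM after CONV-TOPO on days 3 and 7, and 24.2 and 7.45 CPM after EE-TOPO. ZNF714 measured 5.21, 8.45 and 8.30 CPM untreated, 10.9 and 2.07 CPM after CONV-TOPO and 11.0 and 3.19 CPM after EE-TOPO. ZNF808 measured 5.56, 8.88 and 9.19 CPM untreated, 12.2 and 3.77 CPM after CONV-TOPO and 11.8 and 2.26 CPM after EE-TOPO. In each the treated libraries of day 7 were the lowest of the 7 and those of day 3 the highest. They fell by 1.22 ± 0.18, 1.13 ± 0.25 and 1.06 ± 0.26 log2 units against untreated (limma adjusted p = 0.000441, 0.0044 and 0.0077). The call of ZNF808 was lost without the EE-TOPO library of day 7 (adjusted p = 0.084). ZNF331, a KRAB gene of cluster 9 found in fusions in thyroid adenoma, measured 16.8, 24.1 and 34.0 CPM untreated, 31.8 and 11.6 CPM after CONV-TOPO and 30.2 and 13.3 CPM after EE-TOPO. It fell by 0.71 ± 0.23 (limma adjusted p = 0.0256), and that call and the call of ZNF558 (-0.79 ± 0.26, adjusted p = 0.0277) were lost when a treated or the untreated day 7 library was left out (for ZNF331 adjusted p = 0.13, 0.0716 and 0.0729 without the CONV-TOPO, EE-TOPO and untreated library; for ZNF558 adjusted p = 0.194 and 0.0906 without the CONV-TOPO and untreated library). Both treated libraries of day 7 were at least 2-fold below untreated in 4 members, ZNF558, ZNF714, ZNF611 and ZNF331, or 2.84% against a background of 6.34%. The number was 9 without scaling and 1 against the mean of the untreated libraries, where the background was 12.2% and 4.31%.

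Between days 3 and 7 of topotecan, 59 of the 167 KRAB members fell and 0 rose. Among genes under 45% GC the share that fell was 39.4% for KRAB members and 39.8% for all listed genes. These calls compare treated libraries directly, without an untreated reference. In untreated spheroids, day 7 over day 3 had a median log2 ratio of -0.13 over the 107 KRAB members with at least 5 CPM. Of these, 39 were higher, and the median of all listed genes at that level was -0.02. The part of this untreated change in the topotecan contrast was not tested. In the limma contrast of topotecan on day 7 against topotecan on day 3, 66 of 217 members fell (30.4%) and 19 rose (8.76%), against a background of 23.3% falling and 23.0% rising. The falling KRAB members were 35.3% of those tested and 1 was higher at an unadjusted p under 0.05, and the members without a KRAB match had 7 falling and 19 rising of 50. KRAB ZNF genes of other chromosomes had 47.0% falling. ZNF91 fell by 1.56 ± 0.28 (limma adjusted p = 0.0015), ZNF841 by 1.24 ± 0.29 (adjusted p = 0.0058) and ZNF699 by 1.02 ± 0.33 (adjusted p = 0.0274). Without scaling, 111 members fell and 16 rose, beside 36.7% and 13.4% of all genes. Leaving out the EE-TOPO library of day 3 left 15 falling members and leaving out the CONV-TOPO library of day 7 left 26, where 12.7% and 16.9% of all genes fell. The calls of ZNF841 and ZNF699 were among those lost, at adjusted p = 0.0697 and 0.278 without the former library and 0.0514 and 0.213 without the latter.

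The last comparison set the regimens against each other. EE-TOPO libraries held more of most KRAB members than CONV-TOPO libraries on both days. On day 3, 84 of 107 KRAB members were higher after EE-TOPO (78.5%), with a median log2 ratio of 0.17, and on day 7, 90 of 107 were higher (84.1%), with a median of 0.29 (1.22-fold). Over all listed genes the medians were -0.02 and -0.02, with 47.5% and 47.0% higher. The 62 KRAB ZNF genes of other chromosomes had medians of 0.09 and 0.02, with 64.5% and 51.6% higher. The 34 members without a KRAB match had -0.08 and 0.07, and the 28 other genes that lie inside the same clusters had -0.13 and -0.06. Without scaling the KRAB medians were 0.19 and 0.31. On day 3 the EE-TOPO to CONV-TOPO ratio also moved with transcript length and GC over all genes (rho 0.38 and -0.31 across 11124 genes), and on day 7 it did not to a comparable extent (0.02 and 0.03). Among genes under 45% GC the day 7 median was 0.31 for 85 KRAB members, 0.02 for 33 KRAB ZNF genes of other chromosomes and -0.03 for 4247 listed genes.

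The regimen difference was also fitted gene by gene. The error of that fit includes how far the ratios to untreated changed between days 3 and 7. A lack of calls therefore does not show that the regimen differences were small. In the limma fit with treatment and day as terms and 2 residual degrees of freedom, 0 members and 0.0% of all genes passed in either direction (0.0% higher, 0.0% lower). At an unadjusted p under 0.05, 9 of 217 members were higher after EE-TOPO and 0 were lower, against 0.576% and 0.236% of all genes. The median fitted log2 difference was 0.24 over 167 KRAB members, of which 140 were positive, and -0.01 over all genes. When only the libraries of the 2 regimens were fitted, ZNF526 and ZNF699 passed as higher and ZNF581 as lower after EE-TOPO, while 0.535% and 0.521% of all genes passed. In that fit the only error is the change of the regimen difference between day 3 and day 7.

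**Figure D4:**
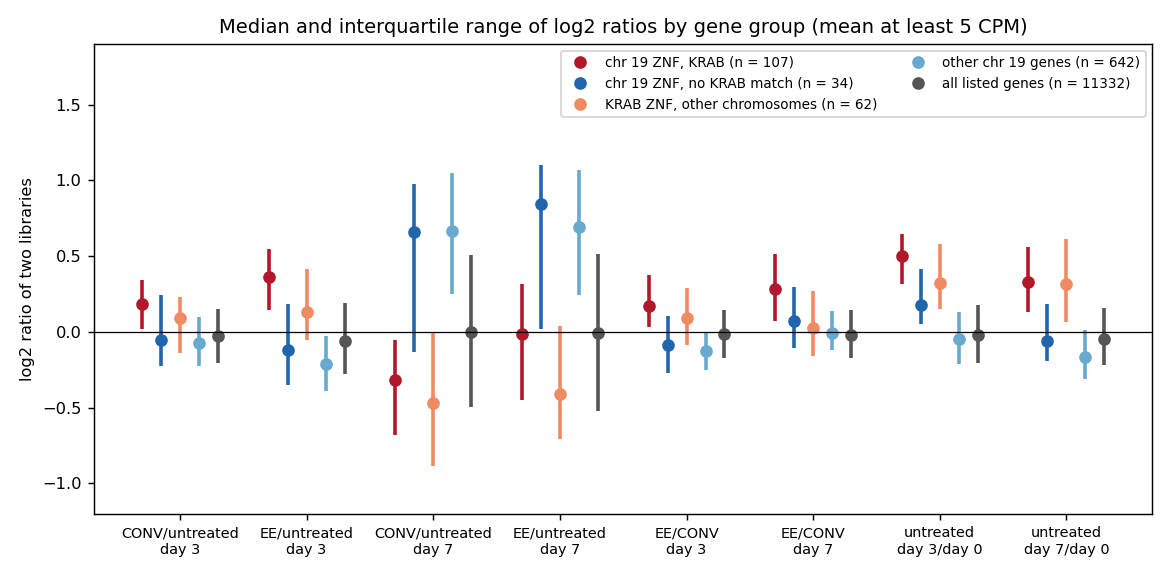
Median (points) and interquartile range (bars) of log2 ratios between 2 single libraries (y axis) for 5 gene groups with a mean of at least 5 CPM and 8 pairs of libraries (x axis). KRAB members (red) lie above 0 in both EE/CONV columns at medians of 0.17 and 0.29, whereas all listed genes (grey) lie at -0.02 in both.

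The difference between regimens was spread over the clusters. On day 7 the median EE-TOPO to CONV-TOPO log2 ratio was 0.41 in cluster 3 (15 of 16 members higher), 0.44 in cluster 4 (5 of 6), 0.29 in cluster 9 (26 of 33) and 0.23 in cluster 11 (28 of 36). It was 0.00 in cluster 10 (6 of 11), where 4 of 16 listed members had a KRAB match, and 0.07 in cluster 8 (5 of 7). On day 3 cluster 3 again had a high median of 0.37 (14 of 16) and cluster 10 a negative one of -0.28 (1 of 11). In untreated spheroids the median for day 3 over day 0 was -0.04 in cluster 8, 0.04 in cluster 6 (3 members) and 0.08 in cluster 10, where clusters 3, 4, 5 and 9 had 0.51, 0.56, 0.79 and 0.44. Grouped by promoter, the 21 KRAB members with TCCAATCA had EE-TOPO to CONV-TOPO medians of 0.39 on day 3 (19 higher) and 0.37 on day 7 (20 higher), and the 77 with a promoter entry without it had 0.15 and 0.28. Among KRAB members the word occurs only in clusters 1, 3, 4 and 5, where most KRAB promoters hold it. Word and cluster therefore largely coincide, and their separate parts were not tested.

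**Figure D5:**
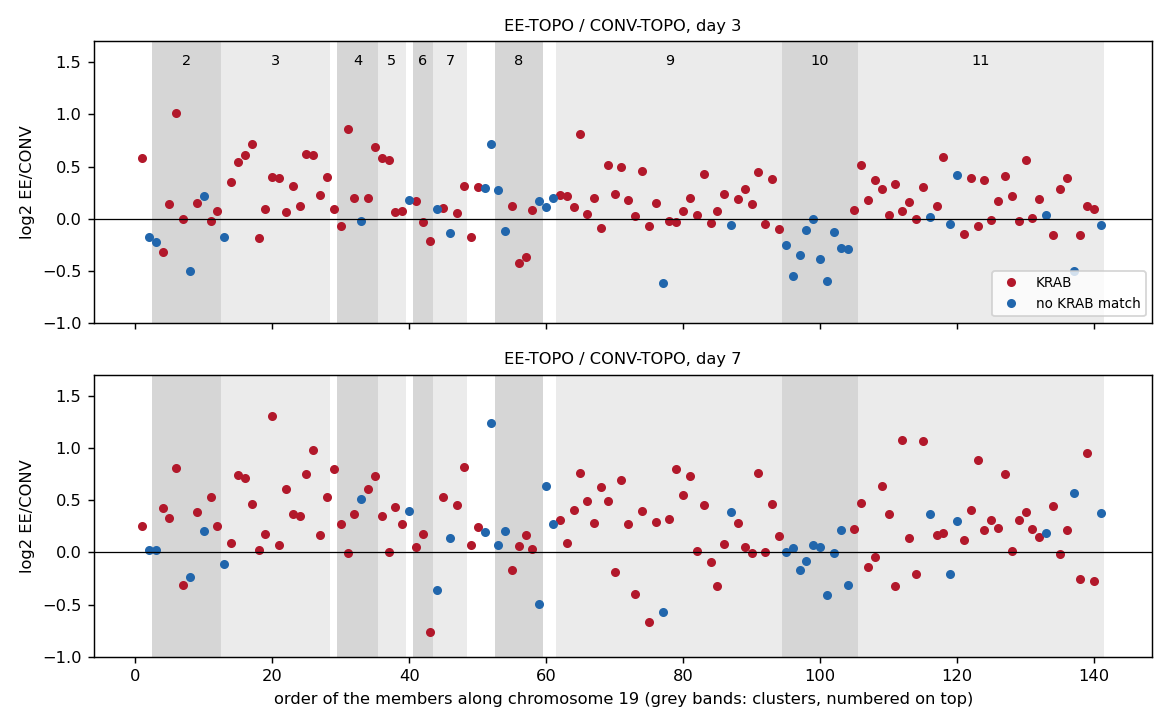
Log2 ratio of the EE-TOPO to the CONV-TOPO library (y axis) for the 141 members with a mean of at least 5 CPM in their order along chromosome 19 (x axis), on day 3 (top) and day 7 (bottom), with KRAB members in red and members without a KRAB match in blue. Grey bands are the numbered clusters, and cluster 1 has no member at this level. Most red points lie above 0 on both days, and the blue points of cluster 10 lie at or below 0 on day 3.

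The highest EE-TOPO to CONV-TOPO ratios on day 7 were those of ZNF844, ZNF526 and ZNF749. ZNF844 measured 9.12, 13.9 and 6.67 CPM untreated, 10.4 and 3.46 CPM after CONV-TOPO on days 3 and 7, and 14.1 and 9.38 CPM after EE-TOPO. From 141 and 57 reads, EE-TOPO was 2.65-fold higher on day 7 (exact conditional 95% interval 1.94 to 3.67, counting error only). ZNF526, which lies outside the clusters and has no KRAB match, measured 7.31, 7.03 and 9.03 CPM untreated, 11.8 and 5.96 CPM after CONV-TOPO and 20.2 and 15 CPM after EE-TOPO, a 2.46-fold difference on day 7 (1.93 to 3.15) and 1.67-fold on day 3 (1.4 to 2). In both genes CONV-TOPO on day 7 gave the lowest of the 7 values. On day 3 the highest ratios were those of ZNF699, ZNF14 and ZNF350. ZNF699 measured 14.8, 19.4 and 15.8 CPM untreated, 20.4 and 8.57 CPM after CONV-TOPO and 42.7 and 15.7 CPM after EE-TOPO. ZNF350 (ZBRK1, a BRCA1 partner that represses DNA damage response genes) measured 3.76, 7.08 and 5.57 CPM untreated, 7.57 and 6.20 CPM after CONV-TOPO and 13.9 and 11.0 CPM after EE-TOPO. Its log2 ratio of CONV-TOPO to untreated was 0.05 on day 3 and 0.40 on day 7, and its EE-TOPO values were the highest 2 of the 7, at 1.81-fold (1.45 to 2.26) and 1.74-fold (1.35 to 2.25) of CONV-TOPO. ZNF14 was 1.88-fold higher on day 3 (1.51 to 2.36) and not on day 7 (0.997, 0.745 to 1.33). The lowest ratios were those of ZNF83, at 0.647 (0.582 to 0.719) on day 3 and 0.667 (0.565 to 0.787) on day 7, ZNF581 (0.658) and ZNF579 (0.682) on day 3, and ZNF792 (0.567) and ZNF808 (0.587) on day 7. ZNF420 (APAK, a KRAB gene of cluster 7) measured 2.66, 4.44 and 2.68 CPM untreated, 4.67 and 3.83 CPM after CONV-TOPO and 6.23 and 3.26 CPM after EE-TOPO.

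The partners through which KRAB proteins silence included rising and falling genes. On day 7, 2 of the 16 silencing genes rose against untreated (12.5%, background 21.3%), 5 fell (31.2%, background 23.3%) and 9 did not pass the test, and on day 3 and between the regimens 0 passed in limma (4 and 0 at an unadjusted p under 0.05). TRIM28, the corepressor that binds the KRAB box and itself a gene of chromosome 19, measured 530, 522 and 451 CPM untreated, 453 and 681 CPM after CONV-TOPO and 387 and 687 CPM after EE-TOPO, and rose by 0.67 ± 0.14 on day 7 (limma adjusted p = 0.00359). CBX5 (heterochromatin protein 1 alpha) rose by 0.52 ± 0.14 (adjusted p = 0.0109). TASOR and MPHOSPH8, both subunits of the HUSH silencing complex, fell by 0.81 ± 0.12 and 0.72 ± 0.13 (adjusted p = 0.000497 and 0.00171), the maintenance methyltransferase DNMT1 fell by 0.59 ± 0.12 (adjusted p = 0.00302), and the NuRD remodelers CHD3 and CHD4 fell by 0.53 ± 0.12 and 0.49 ± 0.14 (adjusted p = 0.00471 and 0.0169). SETDB1 measured 22.1 to 34.0 CPM, and its day 7 change was -0.08 ± 0.17 (adjusted p = 0.72). For comparison, 21 short-lived messenger RNAs such as MYC and JUN had median log2 ratios of -0.21 after CONV-TOPO and -0.46 after EE-TOPO on day 3, and 0.50 and 0.50 on day 7. The untreated library of day 3 was itself high for them, at a median of 0.42 over day 0, and against the pooled untreated libraries the median fitted change of the 22 tested was 0.05 on day 3.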

How the data were processed

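Per the paper's methods and the labels, RNA was sequenced as paired 150-base reads from TruSeq libraries, mapped to hg38 with STAR and normalized. What the authors deposited is a CPM table of 18144 genes with 0.0001 added to each value, which was subtracted. Partek is the tool in the submitters' processing notes. The paper gives the late exposure in weeks whereas the labels give day 7, and the labels were followed. The deposited CPM were scaled here by TMM factors, and ratios were taken on log2(CPM + 0.5), which understates changes of low genes. limma 3.58.1 (R 4.3.3, mean-variance trend, Benjamini-Hochberg over all 14399 genes with a mean of at least 0.5 CPM) was fitted to 3 states (untreated, topotecan day 3, topotecan day 7, 4 residual degrees of freedom), so that the error is the spread between regimens and between untreated days, and to treatment plus day (2 residual degrees of freedom). The fits were tested on simulated data. Depth came from the size of 1 read, and intervals cover counting error only. The members and lists were chosen with earlier results of these data known. Named genes were the lowest and highest ratios per comparison, the highest levels per kb and a list of well-studied members. GENCODE 44 canonical transcripts gave length, GC and proteins. Alternatives were no scaling, median-of-ratios scaling, other pseudocounts, filters, baselines and folds, and leaving out each library. Some of the marker genes fixed for the cell line are not reported here.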

Additional observations from a re-analysis of the deposited data

Results flagged for a closer look

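Of the 37 named members, 20 were on 1 side of untreated in both regimens on day 3 and on the other side in both regimens on day 7. The named members include the lowest and highest of these same ratios. The share of all listed genes with opposite directions on the 2 days is not given here, so this count is not read as a result. No group had 4 libraries, so no library was examined as an outlier. The values below are the limma contrast of topotecan on day 7 against day 3. They describe genes that were selected by these directions in the same libraries, so the number that passed is not read as a test, and 23.0% of all genes rose and 23.3% fell in this contrast. The 9 that rose between the days were ZNF358 (log2 1.34), ZNF414 (1.25), ZNF581 (1.23), ZNF787 (1.02), ZNF444 (1.01), ZNF580 (0.99), ZNF428 (0.97), ZNF446 (0.97) and ZNF628 (0.85), with adjusted p from 0.000106 to 0.0046. The 7 that fell were ZNF714 (-1.63), ZNF808 (-1.60), ZNF91 (-1.56), ZNF611 (-1.51), ZNF841 (-1.24), ZNF224 (-1.12) and ZNF331 (-0.99), with adjusted p from 0.00025 to 0.0443. For ZNF132 (-0.77), ZNF528 (-0.70), ZNF83 (-0.68) and ZNF792 (-0.39) the contrast did not pass. The contrast compares the treated libraries of day 7 with those of day 3, and no untreated level enters its value. Change of untreated spheroids over the same days is therefore not removed. A difference of the effects against same-day untreated libraries was not tested.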

How the results depend on the processing

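With 1 library a group the precision is set by counting (15 M to 22.5 M reads) and by a spread that mixes regimens and days. Of the values that answer a comparison, 155 of 182 under an alternative stayed near the main value, and 27 moved. Near meant within 1.5-fold for a count, whichever genes it held, and within 0.1 log2 units for a median. Counts that were 0 and stayed 0 were among those that stayed. Without scaling, 33 members fell on day 7 against untreated and 111 against day 3, 9 were 2-fold lower and 3 were 2-fold higher in both regimens on day 7, and the members' medians became -0.48 (CONV-TOPO) and -0.18 (EE-TOPO, against 0.06 scaled) on day 7 and 0.35 for untreated day 7 over day 0. Scaling moved the median of all genes too, and the distance of the members from all genes on day 7 was -0.22 and 0.07 with scaling and -0.21 and 0.07 without it. With untreated days 3 and 7 only, 35 members fell on day 7. Against the mean of the untreated libraries 1 member was 2-fold lower and 3 were 2-fold higher on day 7, and the day 3 medians were 0.29 and 0.46. At 1.5-fold, 5 members were higher on day 3, and 17 were lower and 22 higher on day 7. With a mean of at least 2 CPM, 1 member was 2-fold higher on day 3. With only the libraries of the 2 regimens, 2 members were higher and 1 was lower after EE-TOPO. Leaving out 1 library at a time gave 0 to 5 members higher on day 3 (5 without the untreated library of day 3), 9 to 35 lower on day 7 against untreated, 15 to 77 lower on day 7 against day 3, and 0 to 2 higher and 0 to 1 lower after EE-TOPO, where the cause was not tested. Of the named members called, 15 of 20 (day 7 against untreated) and 16 of 24 (day 7 against day 3) kept their call under every alternative. The stricter KRAB pattern moved no median of the KRAB members by over 0.1. No paired analysis was possible because each treatment and day has 1 library and the labels number no replicates, and the day is already a term of the regimen fit. The KRAB pattern, the regimen ratios and the untreated ratios under other settings were chosen after seeing the data.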
